A study of Mus musculus with 16 samples.

Results

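The genomic regions described here are 1 kb stretches of the mouse autosomes that lie away from gene starts and were poorly methylated in splenic B cells and in T cells alike. They were chosen by their measured methylation: the autosomes (mm10) were cut into 1 kb regions from position 1, regions more than 2000 bp from every protein-coding transcription start site (TSS) of GENCODE vM21 were kept, and a region had to hold 5 or more CpGs and 150 or more cytosine calls pooled over the 8 libraries of each cell type. A region became a member when its pooled methylation was 30% or less in B cells and 30% or less in T cells. Of 2462736 regions, 1488946 distal regions met the CpG and call minimums and 14506 of them, 0.974%, were members. A further 4100 distal regions were at or under the limit in B cells only and 7261 in T cells only.

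The libraries came from C57BL/6J mice aged 6 to 8 weeks, with spleen cells of pooled animals separated on magnetic columns into CD43- resting B cells and CD4+ CD62L+ naive T cells. There were 16 whole-genome libraries, 2 for each combination of cell type, sex and chemistry. In bisulphite sequencing (BS) a cytosine call counts 5-methylcytosine (5mC) and 5-hydroxymethylcytosine (5hmC) together, whereas oxidative bisulphite sequencing (oxBS) converts 5hmC first and counts 5mC alone. Per the labels, part of each sample was oxidised after adapters were ligated, so a BS and an oxBS library may hold the same DNA, but no label says which do. The tests and ranges below treat each library as a separate sample. The labels give no treatment or mutation, so the contrasts are cell type, sex and chemistry. They name no animal for any library, and p-values therefore measure the spread between libraries, which may be partly technical.

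In mammalian genomes most CpGs are methylated. Low methylation is found at CpG islands, which are dense in CpGs and often stay unmethylated in every tissue, and at enhancers, where bound transcription factors and TET enzymes, which oxidise 5mC to 5hmC, keep CpGs low in the cells that use them. Genes of embryonic transcription factors are known for wide unmethylated domains that carry Polycomb proteins in cells where the gene is silent.

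The sequences that carry the description are shown first, as 200 bases of the plus strand of mm10. The first set holds CpG-poor members whose nearest protein-coding gene is in a list of genes used by all lymphocytes, with the most occurrences of the leading 8-base words that hold the core GGAAGT of ETS factors (1 region per gene). Capitals mark those words. They were picked for their words after the values were seen.

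Fli1 region, chr9:32507610-32507809: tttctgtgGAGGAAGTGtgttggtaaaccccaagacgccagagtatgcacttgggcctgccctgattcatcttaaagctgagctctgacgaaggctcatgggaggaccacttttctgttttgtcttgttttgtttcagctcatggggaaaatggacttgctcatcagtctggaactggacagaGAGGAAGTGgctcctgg
Foxo1 region, chr3:52396272-52396471: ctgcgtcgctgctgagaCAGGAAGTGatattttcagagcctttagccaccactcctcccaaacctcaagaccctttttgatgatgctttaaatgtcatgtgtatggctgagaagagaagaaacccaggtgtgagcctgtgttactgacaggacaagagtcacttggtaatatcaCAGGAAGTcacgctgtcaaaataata
Btg2 region, chr1:134065241-134065440: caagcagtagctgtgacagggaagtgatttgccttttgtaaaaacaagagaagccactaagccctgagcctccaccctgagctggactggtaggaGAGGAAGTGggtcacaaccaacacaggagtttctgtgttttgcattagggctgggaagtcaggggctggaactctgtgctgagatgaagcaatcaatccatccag

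The Fli1 window held 2 CpGs, at a pooled 0% over 148 B-cell calls and 0% over 155 T-cell calls. The Foxo1 window held 3 CpGs, at 1.09% in B and 0.410% in T cells. The Btg2 window held 0 CpGs, so its methylation was not measured. In the 1 kb member around each of these windows, the B libraries ran from 8.80% through a median of 17.4% to 25.97% at Fli1, a gene-body region with 13 CpGs. The T libraries there ran from 2.13% through 8.85% to 13.5%. The intergenic Foxo1 member, 127665 bp from the TSS, was at 2.58% to 9.35% in B and 1.94% to 11.7% in T libraries, and the intergenic Btg2 member at 0% to 19.4% and 0% to 14.3%.

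The second set shows the window with the most CpGs in 6 members from different settings, with each CpG in capitals: a CpG-poor intronic region of Ikzf1, the miR-142 host gene, a region 2471 bp from the TSS of the T-cell factor Lef1, a pair of regions near embryonic transcription factors, and a CpG-rich region within Dleu2. The Mir142hg and Dleu2 members were picked from those with the lowest levels of their CpG class, so their low levels are fixed by the choice. The others were the members nearest to the TSS of their gene.

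Ikzf1, chr11:11689143-11689342: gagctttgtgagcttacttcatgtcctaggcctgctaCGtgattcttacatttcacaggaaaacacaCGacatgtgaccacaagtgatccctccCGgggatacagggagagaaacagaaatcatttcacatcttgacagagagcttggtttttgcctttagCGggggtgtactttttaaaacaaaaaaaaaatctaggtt
Mir142hg, chr11:87757041-87757240: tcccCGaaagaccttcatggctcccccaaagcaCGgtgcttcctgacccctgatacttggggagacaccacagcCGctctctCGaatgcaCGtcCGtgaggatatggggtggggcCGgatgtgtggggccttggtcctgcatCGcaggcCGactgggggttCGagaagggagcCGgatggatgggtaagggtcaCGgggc
Lef1, chr3:131107663-131107862: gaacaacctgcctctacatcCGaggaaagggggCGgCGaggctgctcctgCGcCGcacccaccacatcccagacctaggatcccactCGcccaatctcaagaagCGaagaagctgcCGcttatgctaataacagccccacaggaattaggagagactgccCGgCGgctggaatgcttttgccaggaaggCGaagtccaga
Pax2, chr19:44753364-44753563: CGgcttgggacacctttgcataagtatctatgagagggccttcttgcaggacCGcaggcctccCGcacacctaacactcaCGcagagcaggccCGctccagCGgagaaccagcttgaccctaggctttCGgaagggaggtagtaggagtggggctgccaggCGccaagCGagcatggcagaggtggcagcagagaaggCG
Sox2, chr3:34647559-34647758: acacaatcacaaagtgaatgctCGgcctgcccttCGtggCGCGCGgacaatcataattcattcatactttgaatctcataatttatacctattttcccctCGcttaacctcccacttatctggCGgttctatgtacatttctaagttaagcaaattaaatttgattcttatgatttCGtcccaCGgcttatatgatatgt
Dleu2, chr14:61648261-61648460: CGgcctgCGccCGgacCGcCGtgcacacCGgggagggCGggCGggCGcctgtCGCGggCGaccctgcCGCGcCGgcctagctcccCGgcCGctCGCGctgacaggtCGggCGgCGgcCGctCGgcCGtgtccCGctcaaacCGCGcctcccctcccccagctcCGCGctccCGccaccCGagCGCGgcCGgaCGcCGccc

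The sequences differ most in CpG number, with 4 CpGs in the Ikzf1 window and 37 in the Dleu2 window. Pooled methylation was 0% in both cell types over the Ikzf1 window. It was 0.107% in B cells and 0.111% in T cells over the Dleu2 window. The Pax2 window was higher, at 11.9% in B cells and 14.3% in T cells, with single CpGs between 3.28% and 33.3% in B cells. Single CpGs of the Sox2 window spanned 0% to 61.0% in B cells. In T cells they spanned 3.51% to 63.2%, so CpGs within 200 bases differed widely at this site.

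The cell types were checked at the promoters of defining markers, within 1000 bp of the TSS. In B cells the median over 8 libraries was 12.5% at Cd79a and 14.7% at Ms4a1, against 76.6% and 94.4% in T cells. In T cells it was 2.46% at Cd3e and 3.75% at Cd3d, against 86.9% and 94.1% in B cells. Cd28 was high in both, at 89.8% and 91.8%. Over all 7 B-cell markers the summed level was 9.21% to 16.7% in B libraries and 48.2% to 57.9% in T libraries, and over all 8 T-cell markers it was 47.2% to 54.1% and 6.71% to 13.3%. Markers of other splenic cells (7 genes of macrophages, CD8 T cells and natural killer cells) were at 80.1% to 82.9% in B and 59.7% to 70.4% in T libraries, with Cd8b1 at a median of 36.1% in T cells and Lyz2 at 45.9% in B cells. Library totals were 123693203 to 171130063 calls, or 5.83 to 8.07 calls per CpG. Mitochondrial cytosines, which should be almost free of methylation, read as methylated in 0.0549% to 0.485% of calls in 15 libraries and in 1.21% in a male B-cell oxBS library (number 2).

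Members were richer in CpGs than the distal genome. The median was 18 CpGs per kb, against 9 over all distal regions, with a GC content of 49.1% against 43.2% and an observed over expected CpG ratio of 0.309 against 0.197. Only 8.04% of members held 50 or more CpGs, and most of them, 8124 or 56.0%, were CpG-poor with 5 to 19. A further 5215 held 20 to 49. The share of distal regions that were members rose with CpG number, from 0.581% of the CpG-poor to 5.86% of the intermediate and 47.8% of the CpG-rich.

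Methylation inside the members also followed CpG number, given here as a description because these levels chose the members. Median pooled methylation was 14.6% in B cells and 13.5% in T cells over all members, against 91.7% and 91.2% over all distal regions. CpG-poor members had medians of 17.8% and 16.3%. CpG-intermediate members had 11.8% and 11.6%, and CpG-rich members 4.11% and 4.25%. In 77.04% of CpG-rich members both cell types were at 10% or less, compared with 36.5% of the intermediate and 15.3% of the CpG-poor. In bulk DNA a level of 15% to 25% cannot tell a methylated subset of cells from partly methylated molecules in every cell.

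**Figure D1:**
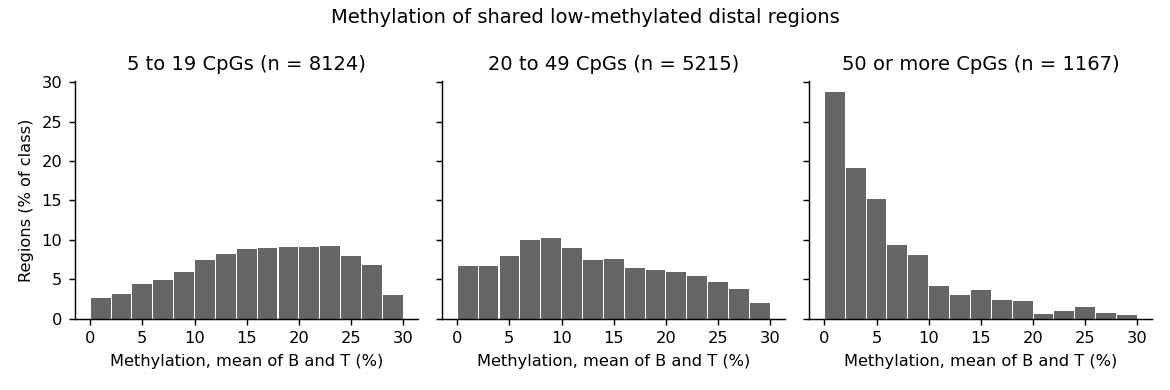
Histograms of methylation (mean of pooled B-cell and T-cell levels, %, 2-point bins) in the 8124 CpG-poor, 5215 intermediate and 1167 CpG-rich members, as percent of each class. The CpG-rich members pile up below 6%, with 28.7% of them under 2%, while the CpG-poor members spread up to the 30% limit that chose them.

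The limit is illustrated by the regions closest to it on each side, picked for lying there. How levels are distributed across the limit was not examined. The last members inside it were at 30% in 1 cell type, among them an intergenic region 8186 bp from Mtmr3 on chr11:4603001-4604000 with 14 CpGs, whose B libraries ran from 18.4% through a median of 26.97% to 35.4% and whose T libraries ran from 16.7% through 31.1% to 49.3%. The first regions outside included an intron of Notch1 (chr2:26483001-26484000) at 4.18% in B and 30.009% in T cells, and an intron of Il4ra (chr7:125556001-125557000) at 30.009% in B and 1.45% in T cells. Notch1 is a receptor of T-cell development and Il4ra a subunit of the interleukin-4 receptor.

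Choosing the regions again in libraries of a single sex tested whether the low levels recurred in libraries that had no part in the choice. With 75 or more calls per cell type and sex, 14433 regions were at or under 30% in both cell types in the female libraries, and 13364 of these, 92.6%, were also at or under 30% in both in the male libraries. Their median level was 14.4% in female and 14.5% in male B libraries, and 13.4% and 13.5% in T libraries. The reverse choice gave 93.2%. Chosen in BS libraries, 94.0% stayed in the oxBS libraries, and chosen in oxBS, 89.96% stayed in BS, in libraries that may share DNA.

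Members were counted by how many lay side by side. There were 10859 runs of adjacent members, of which 8731 were a single region, holding 60.2% of all members, and 611 runs spanned 3 kb or more, holding 18.9%. Single regions made up 71.5% of CpG-poor members and 31.3% of CpG-rich members. The profile around isolated members is a description, since the rule chose the low region and isolated means that its neighbours did not meet the rule, which by itself gives a dip about as wide as the region. In the 5807 isolated CpG-poor regions pooled methylation fell to 13.4% in B and 12.5% in T cells in the lowest 100 bp. It was back at 77.6% and 75.2% between 500 and 1000 bp beyond the region's edge, and fell again to 69.4% and 67.3% at 2000 to 2500 bp. The 365 isolated CpG-rich regions fell to 7.38% in B and 7.37% in T cells, with shoulders of 68.7% and 68.2%. The highest 100 bp bin within 3450 bp of the centre was at 78.6%, in B cells around CpG-poor members. Summed over calls in the same way, methylation of all autosomal CpGs was 78.4% to 81.5% per library. The bins sum calls and were not limited to distal CpGs, so they do not compare with the medians of distal regions above.

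**Figure D2:**
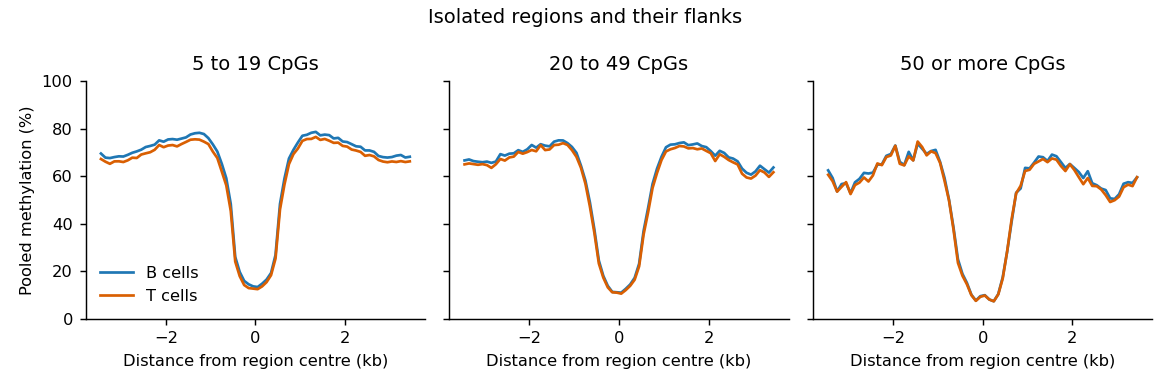
Pooled methylation (%, y axis) in 100 bp bins against distance from the centre of isolated members (kb), for 5807 CpG-poor, 2559 intermediate and 365 CpG-rich regions in B cells (blue) and T cells (orange). The width of the dip is set by the 1 kb regions and by the choice of isolated ones, and its lowest bin is near 7% in the CpG-rich regions.

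The longest run spanned 20 kb at chr13:78171001-78191000 near Nr2f1, an orphan nuclear receptor of neural development, with 297 CpGs and a mean of 14.01% in B and 14.5% in T cells. Runs of 16 kb lay near Zic4, a zinc-finger factor of the hindbrain (chr9:91381001-91397000, 10.3% and 11.01%), and near Cbx8, a Polycomb subunit (chr11:119043001-119059000, 6.33% and 7.45%). Runs of 15 kb lay near Nr2f2 (chr7:70324001-70339000), over the neural microRNA host Mir9-3hg (chr7:79496001-79511000) and near Tbx5, a factor of heart and forelimb (chr5:119794001-119809000). In all 6 of these runs the mean was between 6.33% and 14.5% in each cell type.

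Members sat nearer to genes than other distal regions, although the rule kept them away from protein-coding starts. Their median distance to a protein-coding TSS was 17944 bp, against 47882 bp over all distal regions, and 18.6% lay between 2000 and 5000 bp away, against 7.07%. Only 12.3% lay more than 100000 bp from any such TSS, against 33.6%. Starts of other transcript types were common: 9.90% of members held a TSS of some biotype, against 2.34% of distal regions, and 23.5% lay within 2000 bp of one. Members with a start inside were each counted by the type of the start with the lowest coordinate, and further starts were not counted. This start was that of a lincRNA at 469 members, of a processed transcript at 271 and of a transcript with a retained intron at 155. It was that of an antisense transcript at 142 and of a microRNA at 40, among other types. How many of these starts belong to protein-coding genes was not counted. A RefSeq promoter window (300 bp) overlapped 5.47% of members, against 0.675% of distal regions. By gene model, 42.5% of members were intergenic and 32.6% intronic only, compared with 46.4% and 39.1% of distal regions, and 24.9% touched an exon, against 14.5%. Soft-masked repeats covered a median of 14.7% of a member and 22.6% of a distal region. The contrast was sharpest among CpG-rich regions, where repeats covered 7.20% of members and 95.8% of the regions that were not members.

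The 3 lowest CpG-intermediate members were an intergenic region 24172 bp from Hfe2, a region within Mir142hg and a region within Gm4258. The 3 lowest CpG-rich members were an intergenic region 56232 bp from Arid1a, a region within Gm10433 and a region within Dleu2. Within Mir142hg, the host of miR-142, a microRNA of the haematopoietic lineage, the region chr11:87757001-87758000 (25 CpGs) ran from 0% through a median of 0% to 0.463% in B libraries and from 0% through 0% to 0.559% in T libraries. The CpG-rich region chr14:61648001-61649000 in Dleu2, a long non-coding RNA that hosts microRNAs, had 117 CpGs, B libraries at 0% to 0.750% with a median of 0.116%, and T libraries at 0% to 0.150% with a median of 0%. Next to Lef1, an HMG-box factor of T-cell development, the region chr3:131107001-131108000 was at 0.314% to 1.67% in B libraries and 0% to 1.28% in T libraries. The CpG-poor members with the lowest levels were an intergenic region 217871 bp from Rasa1, an intergenic region 53322 bp from Pag1 and a region within Abcb1b, with 6, 9 and 9 CpGs. Each was at 0% in all 16 libraries. These regions had 25 to 109 calls per library. With 0 of 364 B-cell and 0 of 345 T-cell calls methylated near Rasa1, levels of up to 0.824% and 0.870% are allowed (3 calls of the total, counting error only), and the limits at the other two were 0.388% to 0.543%.

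The gene nearest to a member was counted to see which loci held many. Of 19961 protein-coding genes with a distal region nearest to them, 6012, or 30.1%, had a member, with a median of 0 members. The 10 genes with the most were Nr2f2 (47 members), Zic4 (37), Pax2 (35), Nr2f1 (30), Hoxb13 and Mef2c (29 each), Sox2 (27), Tbx3 (26), Pou3f3 and Tfap2b (25 each). All 10 encode transcription factors, and 5 of them are in the developmental list below. Among the 10, the density was highest at Hoxb13, a homeobox gene of the posterior body, where 29 of 61 distal regions, 47.5%, were members. At Pax2, a factor of kidney and eye, 35 of 175 were.

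Genes in the developmental transcription factor list stood highest by count. Of its 84 measured genes, 83 had a member, with a median of 10.5 per gene, and 6.30% of their distal regions were members, against 0.974% over all genes. At 59.8% of these 1013 members there were 20 or more CpGs, and B and T medians were close, at 10.7% and 11.5%. Near Sox2, a stem-cell and neural factor, the closest member (chr3:34647001-34648000, inside Sox2ot) ran from 7.78% through a median of 14.8% to 17.0% in B libraries and from 10.6% through 14.6% to 18.9% in T libraries. At Pax2 the closest member (chr19:44753001-44754000) ran from 8.06% through 12.6% to 14.8% in B and from 10.1% through 13.5% to 17.5% in T libraries. The exonic member at Pou3f3, a neural POU factor, was lower, at 2.10% to 6.42% in B and 1.53% to 3.78% in T libraries. In all 3 the ranges of B and T libraries overlapped.

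The pan-lymphocyte list holds genes that work in B and T cells alike. Of its 50 genes, 39 had a member, with a median of 2.5, and 2.74% of their distal regions were members. These 210 members differed in kind from the developmental ones, since 79.5% were CpG-poor, against 40.2% near developmental factors and 56.0% of all members. Their median level was 13.1% in B cells and 6.96% in T cells. Zfp36l2, which encodes an RNA-binding protein that destabilises mRNA, had 18 members, Foxp1, a forkhead factor of lymphocyte quiescence, 13, Ptprc, which encodes the surface phosphatase CD45, 12, and Ikzf1, which encodes the lymphoid zinc-finger factor Ikaros, 11. Ets1 and Fli1, both ETS factors, had 10 each.

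The members nearest to these genes were low in most T libraries. In the Ikzf1 intron the region chr11:11689001-11690000 (5 CpGs) was at 0% in every B library, and in T libraries it ran from 0% through a median of 0% to 2.27%. Near Ptprc, chr1:138191001-138192000 (9 CpGs) ran from 1.82% through 5.20% to 8.05% in B and from 0% through 1.10% to 1.18% in T libraries, with no overlap. In an Ets1 intron, chr9:32706001-32707000 (14 CpGs) ran from 11.4% through 19.7% to 40.0% in B and from 0% through 0% to 0.926% in T libraries, again without overlap. The Foxp1 intron member (chr6:99263001-99264000) ran from 0% through 6.09% to 10.3% in B and from 0% through 0% to 2.90% in T libraries. Averaged over members, Ptprc was at 12.7% in B and 4.04% in T cells, and Ikzf1 at 13.2% and 4.88%. The Fli1 member nearest to its TSS (chr9:32562001-32563000) was the other way round, from 12.9% through 18.1% to 27.7% in B and from 16.6% through 24.5% to 34.3% in T libraries, and the ranges overlapped.

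In the B-lineage list 12 of 24 measured genes (50%) had a member and 1.13% of their distal regions were members, and in the T-lineage list 17 of 26 (65.4%) had a member, with 1.25%. Over all genes these were 30.1% and 0.974%. The 27 B-lineage members had medians of 13.1% in B and 12.995% in T cells, and the 46 T-lineage members 16.5% and 8.68%. Ebf1, the early B-cell factor, led the first with 7 members, and its closest (chr11:44620001-44621000, 43 CpGs) ran from 4.04% through 8.48% to 11.2% in B and from 12.1% through 17.0% to 27.8% in T libraries, without overlap. The member nearest to Syk, a kinase of the B-cell receptor pathway, ran from 0% through 6.14% to 8.33% in B and from 13.6% through 22.9% to 31.4% in T libraries. The nearest member of Pax5 was at 0.723% in B and 3.70% in T cells. At Irf4, an interferon regulatory factor of B-cell activation, the nearest member was at 4.11% to 17.0% in B and 6.25% to 16.1% in T libraries, and at Lyn, a kinase of the B-cell receptor pathway, at 5.00% to 29.3% and 19.8% to 29.9%, so the ranges overlapped at both. By mean over their members Pax5 was at 9.43% in B and 8.03% in T cells and Irf4 at 16.9% and 16.1%. The single member of Bcl11a, a zinc-finger factor, was at 28.3% and 25.3%. Gata3, the helper T-cell GATA factor, led the T-lineage list with 11, at means of 17.4% in B and 12.7% in T cells. At Bcl11b, a zinc-finger factor of T-cell commitment, 3 members averaged 13.1% in B and 5.52% in T cells. The member nearest to the Gata3 TSS (chr2:9887001-9888000) was instead at 26.5% in B and 27.9% in T cells, and that nearest to Tox, an HMG-box factor of T-cell development (chr4:6925001-6926000), at 21.1% and 26.4%.

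The myeloid list, with 8 of 13 measured genes and 3.17% of distal regions, included Fcgr1, an Fc receptor, and Irf8, an interferon regulatory factor, with 8 members each, and its medians were 13.3% in B and 12.98% in T cells. Genes of liver and neurons, taken as a list from other tissues, had members at 8 of 20, 1.24% of distal regions, at medians of 13.02% and 14.3%. Members near Gad1, a neuronal GABA-synthesising enzyme, averaged 6.49% in B and 10.9% in T cells.

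**Figure D3:**
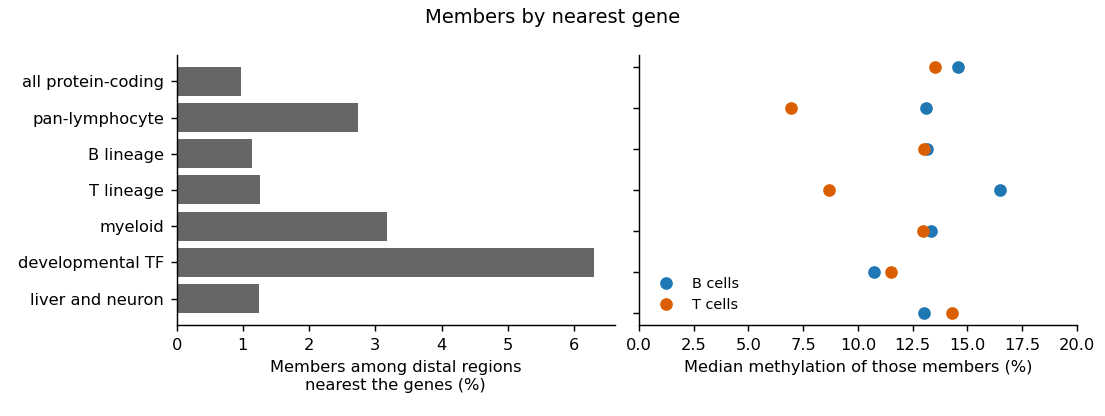
Left, members as percent of all distal regions whose nearest protein-coding gene is in the list. Right, median methylation (%) of those members in B cells (blue) and T cells (orange). The developmental factor list stands at 6.30% on the left, and on the right B and T medians lie apart in the T-lineage list (16.5% and 8.68%) and the pan-lymphocyte list (13.1% and 6.96%).

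The median absolute difference between the cell types was 2.22 points over members, against 1.59 points over other distal regions. B cells were higher by over 10 points at 952 of 14506 members and at 53482 of 1474440 other distal regions. T cells were higher by as much at 512 members and 30822 other distal regions. CpG-poor members accounted for 804 of the 952 and 447 of the 512. These differences are a description, since both levels entered the rule.

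Curated regulatory elements in RefSeq overlapped members more often than distal regions in general. VISTA enhancers, which are tested in mouse embryos, overlapped 1.03% of members and 0.127% of distal regions. Seen from the enhancers, 105 of 602 with a distal region, 17.4%, held a member. For enhancers active in midbrain this was 39 of 154, for hindbrain 34 of 137, for limb 36 of 169, for forebrain 29 of 163 and for heart 20 of 155. Other enhancers overlapped 0.290% of members and 0.0263% of distal regions, and DNase I hypersensitive sites 0.110% and 0.00745%. None of the 5 imprinting control regions or enhancer blocking elements with a distal region held a member.

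Members overlapped enhancers of embryonic tissues and of blood, of which a few are named here after their values were seen. The levels are those of the 1 kb member, which may hold only part of an element. The core of the N2 enhancer of Sox2, active in the epiblast and anterior neural plate, lay in chr3:34646001-34647000, with B libraries from 2.94% through 6.39% to 13.2% and T libraries from 7.41% through 9.50% to 18.3%. At Shh, the morphogen of the ventral midline, the SBE1 brain enhancer spanned 2 adjacent members. In chr5:28459001-28460000 B libraries ran from 6.47% through 8.45% to 11.2% and T libraries from 6.40% through 7.67% to 10.3%. In chr5:28460001-28461000 they were at 3.76% to 8.40% in B and 6.28% to 10.4% in T. The retinal enhancer of Pax6, the eye regulator, in chr2:105682001-105683000 was between 0.498% and 2.99% in B libraries and between 0.769% and 2.45% in T libraries. Some members at enhancers were higher. The pancreatic enhancer of Pax6 spanned members at 8.42% in B and 9.63% in T cells and at 22.1% and 18.4%. The Isl1-F enhancer of the second heart field overlapped members at 24.8% and 22.3% and at 8.97% and 8.53%. On the blood side, the +23 enhancer of Runx1, a factor of blood stem cells, lay in chr16:92801001-92802000, with B libraries from 1.24% through 3.88% to 6.00% and T libraries from 0.407% through 1.91% to 3.19%. The thymic enhancer fragment of Ada, which encodes adenosine deaminase, is 3.3 kb long (chr2:163742936-163746279), and a single 1 kb part of it was a member. This part, chr2:163745001-163746000, ran from 6.00% through 10.9% to 15.3% in B and from 8.11% through 13.8% to 20.3% in T libraries. The hypersensitive site HS-1 of Pax5, the B-cell identity factor (chr4:44712749-44713365), lay partly in the member chr4:44713001-44714000. This member ran from 0.233% through 0.584% to 1.38% in B and from 2.62% through 3.67% to 4.88% in T libraries, with no overlap.

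Intracisternal A-particle (IAP) elements, retrotransposons that are methylated to different degrees in genetically identical mice at some loci, were looked up among the members at the positions of the published list. Those elements were screened for variation in these same libraries, so their spread between libraries is not independent evidence. Of 45 constitutive variably methylated IAPs with a distal region, 8 overlapped a member, of 22 tissue-specific ones 3 did, and of 26 listed as false positives 3 did. Of 18 listed IAPs that share sequences with the constitutive ones, 0 did. Outside IAPs, 1 of 22 listed endogenous retroviruses and 0 of 14 other listed retrotransposons did. The elements named here were chosen after their values were seen. At the element named Gm5444 the member (chr13:4942001-4943000, 25 CpGs) ran from 1.87% through a median of 14.9% to 37.4% in B libraries and from 7.34% through 14.1% to 59.1% in T libraries. At Dmrta1 (chr4:89876001-89877000) it ran from 5.56% to 38.2% in B and from 0.752% to 33.8% in T libraries. At Hunk (chr16:90349001-90350000) the spread was small, from 0% to 3.16% and from 0.478% to 3.36%. These levels are those of the 1 kb member, which holds sequence beside the element. Soft-masked repeats covered 39% of the Gm5444 member, 47.1% of the Dmrta1 member and 45.5% of the Hunk member. The level of the element alone was not measured.

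Short words in the sequence of members were compared with other distal regions of the same CpG class, counting both strands. Composition was not matched within a class. CpG-poor members had medians of 12 CpGs and 46.4% GC, against 8 and 42.9% in other CpG-poor regions. The part of this in the ratios was not tested. In CpG-poor members the words with the highest ratio were GC-box words: CCGCCCCC was in 6.33% of members and 1.96% of other regions (ratio 3.23), and CCCGCCCC in 7.66% and 2.41%. Ranks 4, 6, 9 and 10 by ratio were GCCCCCCC, GAGGGGGC, GCAGCTGC and CCCCCTCC, the last in 16.7% of members and 7.35% of others. Words with the ETS core, at ranks 5, 7 and 8, were more frequent than the GC-box words in absolute terms. ACTTCCTC was in 14.5% of members and 6.07% of others (ratio 2.39), and, named after their values were seen, AGGAAGTG was in 18.9% and 8.00% and ACTTCCTG in 15.9% and 6.95%. These words overlap each other, as in the Fli1 sequence above. Any of the 3 was in 32.6% of CpG-poor members and 15.7% of other CpG-poor distal regions. Near pan-lymphocyte genes the shares were 37.1% of 167 members and 16.7% of 7027 other regions, and near developmental factors 19.4% of 407 and 15.7% of 14218. The B-lineage list had 37.5% of 16 members and 15.5% of others, the T-lineage list 31.03% of 29 and 15.3%, the myeloid list 15.4% of 13 and 18.5%, and the liver and neuron list 16.7% of 6 and 15.3%.

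In the other classes CpG-holding words led. CCCCGCGC was in 5.18% of CpG-intermediate members and 0.928% of others (ratio 5.58), CGCCCCGC in 7.08% and 1.35%, and CCGCCCCG in 7.17% and 1.62%. Among CpG-rich regions AACCCCGC was in 6.34% of members and 0.393% of others, a ratio of 16.1, beside the near complete repeat content of those others. A word in a region is a description of its letters and was not tested as a binding site.

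A few members drew very many reads. At 13 regions the calls per CpG were more than 3 times the median of 120 over all distal regions, and these 13 held 13.4% of all calls in members. The deepest were the 6 adjacent regions chr17:39843001-39849000, which carry Gm26917, Gm42418 and AY036118, with 7499 to 14151 calls per CpG, pooled levels of 25.1% to 28.9% in B and 21.6% to 25.5% in T cells. Exons cover 98.8% to 100% of the 5 deepest. Whether all of these calls come from this place in the genome was not tested, so the levels may not be those of this locus alone. None of the members matched the mitochondrial genome over 200 bases at 80% identity. Differences summed over calls are therefore also given without these 13 where they change.

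Comparing BS with oxBS libraries asked how much of the remaining signal in members was 5hmC. This contrast had no part in the choice of members, which pooled both chemistries. In T cells the level over all members was 13.2% to 14.2% in the 4 BS libraries and 12.1% to 13.1% in the 4 oxBS libraries, without overlap, a difference of 1.05 points. In B cells it was 13.2% to 15.1% and 13.997% to 15.0%, which overlapped, a difference of -0.34 points. Without the 13 deep regions T libraries were at 12.2% to 12.5% by BS and 10.9% to 11.2% by oxBS, and B libraries at 11.3% to 12.8% and 11.5% to 13.3%. Over both cell types the difference was 0.36 points, with an exact permutation p of 0.335 (two-sided, labels permuted within cell type and sex, adjusted p = 0.502 over 12 tests). As an unweighted mean of regions it was 0.797 points.

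The T-cell difference was larger in CpG-poor members. There it was 2.51 points in T cells (17.0% ± 0.223 by BS and 14.5% ± 0.134 by oxBS, SD, n = 4 libraries each, without overlap) and -0.32 in B cells (16.8% ± 1.02 and 17.1% ± 1.13). In CpG-intermediate members it was 1.11 in T and -0.33 in B cells, and in CpG-rich members -0.061 and -0.28. Without the deep regions the CpG-rich difference in T cells turned to 0.30 points, with -0.33 in B cells. Set against each other, the T-cell difference exceeded that of B cells by 1.39 points over all members (exact permutation p = 0.0401). It did so by 2.83 points in CpG-poor members (exact permutation p = 0.0324) and by 1.44 points in the intermediate (exact permutation p = 0.0185). The adjusted p was 0.160 for each of the 3 exact tests, so none passed the adjustment. Over all members it was 1.72 points without the deep regions and 2.24 as an unweighted mean of regions (adjusted exact permutation p = 0.130 for each). Leaving out B female BS library 10 brought the adjusted exact permutation p over all members to 0.0185, at 1.77 points. This was the largest difference on leaving out any library, and no other alternative run passed the adjustment.

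The same direction was present outside members. Over the other distal regions BS exceeded oxBS by 1.09 points in T cells (88.0% and 86.9%), and the difference in B cells was -0.088 points. CpG-poor regions outside members differed by 1.13 points in T cells, on a level near 88%. Mitochondrial calls moved the same way in T cells, with means of 0.158% by BS and 0.0703% by oxBS. In B cells their means were 0.304% by BS and 0.507% by oxBS, with male oxBS library 2 at 1.21%. The part of these in the member differences was not tested. Over all members the SD by oxBS was 0.443 in B and 0.476 in T libraries. Without the deep regions B libraries varied more than T libraries, with SDs of 0.607 by BS and 0.763 by oxBS, against 0.137 and 0.127. In B libraries the summed level at B-cell marker promoters ran from 9.21% to 16.7%. The libraries with the 4 highest values there (numbers 10, 9, 1 and 2) had member levels without the deep regions of 12.8%, 12.7%, 12.2% and 13.3%. Numbers 12, 11, 4 and 3 were at 11.9%, 11.5%, 11.3% and 12.4%. The part of this in the B-cell spread was not tested.

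**Figure D4:**
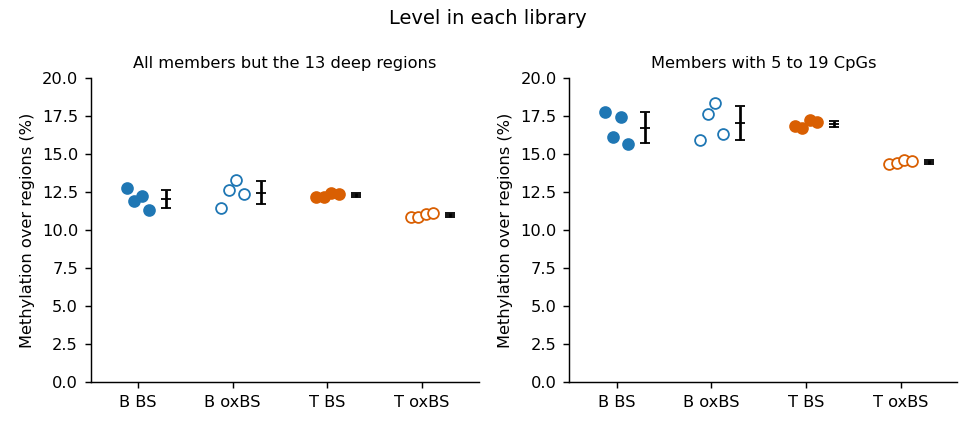
Methylation (%) in each library by cell type and chemistry (filled BS, open oxBS), over all members but the 13 deep regions (left) and over CpG-poor members (right), with mean and SD of 4 libraries beside them. T oxBS libraries lie below T BS libraries in both panels, at 14.3% to 14.6% against 16.8% to 17.2% on the right, and B libraries overlap.

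In percentage points, the difference between BS and oxBS in T cells was greatest just outside isolated members. Around the 8731 isolated members it was 1.56 and 1.69 points in the inner 500 bp bins. In the first 500 bp beyond the edges it was 3.68 and 3.55 points, with BS libraries at 57.8% to 58.0% and oxBS libraries at 54.1% to 54.5% on the left side. It declined to 1.83 and 2.003 points at 3000 to 3500 bp from the centre. In B cells it lay between -1.06 and -0.30 points in every bin, and BS and oxBS libraries overlapped. The bins differ in level, since the rule holds the inner ones low. On the left side the T-cell BS mean was 15.4% inside, 57.9% in the first 500 bp outside and 75.7% in the next. The place of the largest difference may therefore depend on the scale, and no relative scale was used for this profile.

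**Figure D5:**
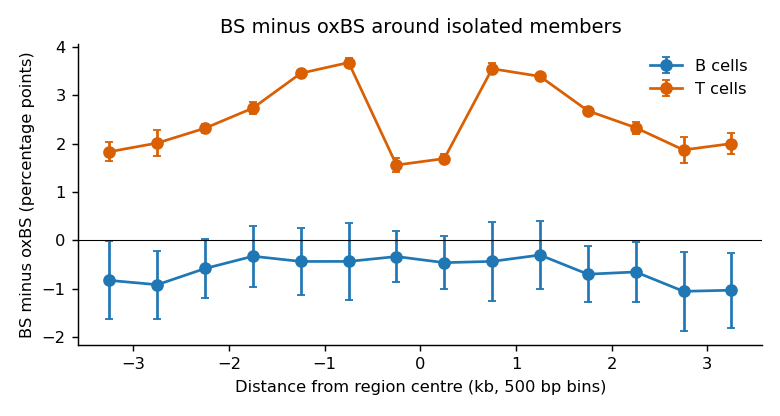
BS minus oxBS methylation (percentage points, y axis) in 500 bp bins against distance from the centre of 8731 isolated members (kb), with the standard error from 4 BS and 4 oxBS libraries. T cells (orange) peak at 3.68 and 3.55 points just outside the region, and B cells (blue) stay at or below 0.

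The difference in T cells varied in size among the gene lists. The 210 members near pan-lymphocyte genes were at 9.29% to 10.1% by BS and 6.54% to 6.87% by oxBS in T cells, and the 46 near T-lineage genes at 10.2% to 11.3% and 8.01% to 8.67%, with no overlap in either. The 27 near B-lineage genes were at 11.7% to 12.8% and 10.1% to 11.6%, also apart. The 1013 near developmental factors were at 10.8% to 10.96% and 10.5% to 10.8% and overlapped, as did those near myeloid genes and near liver and neuronal genes. Differences between the lists were not tested. By single region, the median difference in T cells was 2.20 points near pan-lymphocyte genes and 0.201 near developmental factors, beside 1.22 over all members and 0.829 over other distal regions. It was 2.66 near T-lineage, 1.9999 near B-lineage and 0.422 near myeloid genes, and -0.66 near liver and neuronal genes. CpG-poor members as a whole, the class of 79.5% of pan-lymphocyte members, had a median of 2.09.

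Single regions did not pass. In the quasi-binomial test across all 1488946 distal regions, 0% were called for BS against oxBS at an adjusted p under 0.05, and 0 of 14506 members. An unadjusted p under 0.05 was found at 989 members, 6.82%, and at 5.49% of other distal regions. The limma fit also called 0 distal regions, with 924 members, 6.37%, and 7.44% of other distal regions at an unadjusted p under 0.05, so the order of members and other regions turned between the fits. At 529 members, 3.65%, BS exceeded oxBS by over 10 points in T cells, beside 2.97% of other distal regions. In the CpG-poor class these were 5.75% and 3.02%, in the intermediate class 1.17% and 2.13%, and in the CpG-rich class 0.0857% and 1.26%. In B cells 59 members did so, 0.407%, beside 0.409% of other distal regions.

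Female and male libraries were close over members. B libraries were at 13.6% to 15.1% in females and 13.2% to 15.0% in males, and T libraries at 13.1% to 14.1% and 12.1% to 14.2%. The difference of 0.30 points had an exact permutation p of 0.332 (adjusted p = 0.502), and it was -0.17 points without the 13 deep regions, at which female libraries were at 24.4% to 30.1% and male libraries at 18.6% to 27.2%. CpG-poor members differed by -0.20 points and CpG-rich members, which hold 8 of the deep regions, by 1.19 points (exact permutation p = 0.0972, adjusted p = 0.233). Without the deep regions the difference in CpG-rich members was 0.024 points (adjusted exact permutation p = 0.934). For female against male, 0% of distal regions and 0 members were called in the quasi-binomial test, with 502 members, 3.46%, at an unadjusted p under 0.05 against 2.53% of other distal regions. The limma fit called 2 of all distal regions, none of them a member, and had 441 members, 3.04%, and 4.82% of other distal regions at an unadjusted p under 0.05, again in the opposite order.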

How the data were processed

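The authors trimmed reads with Trim Galore 0.6.0, aligned them to mm10 with Bismark 0.20.0 and handled alignments with SAMtools 1.3.1, and deposited counts of unmethylated and methylated calls per CpG, both strands combined, for each library. Those counts were summed over 1 kb regions and over reference CpGs of the matching GRCm38 assembly, with GENCODE vM21 and RefSeq annotation. Methylation is methylated calls as percent of all calls. Members, gene lists and tests were chosen with earlier results of these data known. Library levels were compared by exact permutation within strata (1296 arrangements, smallest two-sided p 0.00154). Single regions were fitted by quasi-binomial logistic regression with cell type, sex and chemistry (1 pseudo-call per library) and Benjamini-Hochberg adjustment over all distal regions, and by limma 3.58.1 on log2((methylated + 1)/(unmethylated + 1)). The fit was tested on simulated data. BLAST+ was used for matches (200 bases, 80% identity), and 8-base words were counted by Numba 0.67.0. Named regions were the 3 lowest per CpG class, the longest runs, those beside the limit, the deepest, and the member nearest to the 6 leading genes of each list; named genes were the 10 with the most members and named words the 6 with the highest ratio per class. Depth was 5.83 to 8.07 calls per CpG and library. Values of some single genes are not reported here.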

Additional observations from a re-analysis of the deposited data

Results flagged for a closer look

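Of 120 groups of 8 libraries of a cell type looked at over members and named regions, 10 held a library apart from the rest, with a gap over 0.526 of the range. Chance flags about 1 group in 20 where values vary freely. Among T cells, a single BS library was above 0 and the other 7 were at 0 at the Mir142hg region (0.559%, T female BS library 15), the Zfp36l2 region (4.35%, library 13, with 16 to 50 calls per library), the Ikzf1 region (2.27%, library 15) and the Ets1 region (0.926%, library 13). Each of these 4 values is 1 methylated call, of 1577, 197, 310 and 911 T-cell calls, and a lone call among zeros always stands apart by this measure. Among B cells, the Dleu2 region was highest in male oxBS library 2 at 0.750%, the Zfp36l2 region in female BS library 10 at 8.11%, the Bcl11a region in female oxBS library 9 at 39.7%, the Prkcq region in male oxBS library 2 at 54.8%, the Pou3f3 region in the same library at 6.42%, and the Grin1 region in male oxBS library 3 at 9.77%. B male oxBS library 2, which had the largest share of mitochondrial calls read as methylated (1.21%), accounts for 3 of these. Without it the rule gave 14529 members, an alternative chosen after seeing the data.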

How the results depend on the processing

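Counts of members were 13982 with 300 or more calls, 14402 on a grid shifted by 500 bp, 11095 at over 2000 bp from a TSS of any biotype, 14032 in BS libraries only and 14663 in oxBS libraries only. A limit of 20% left 8873, fewer by construction. The share of regions chosen in female libraries that stayed in male libraries was 93.1% with 150 or more calls per sex. No member was called for chemistry or sex under any alternative run, B or T cells alone and 10-point differences included. The female minus male difference over all members, 0.30 points, reversed to -0.185 as an unweighted mean of regions, to -0.17 without the 13 deep regions, to -0.14 at a limit of 20% and to -0.11 away from TSSs of any biotype. That of CpG-rich members was -0.00601 as an unweighted mean and 0.024 without the deep regions. Apart from the removal of the deep regions, the cause was not tested. Leaving out each library in turn gave 0.17 to 0.54 points for BS minus oxBS over all members, 1.01 to 1.77 for T minus B and 0.11 to 0.49 for female minus male, -0.52 to 0.18 for BS minus oxBS and -0.48 to 0.92 for its T minus B difference in CpG-rich members. Female minus male then ran from -0.45 to 0.053 in CpG-poor and from -0.21 to 0.015 in intermediate members. T minus B in BS minus oxBS passed the adjustment in 1 of 22 alternatives, without B female BS library 10 (1.77 points over all, 3.25 in CpG-poor and 1.62 in intermediate members). Female minus male in CpG-rich members passed it in 1 of 22, without B female oxBS library 9 (1.47 points). No paired analysis was run, because the labels number the libraries singly. They do not say which BS and oxBS libraries hold parts of the same sample. Each odd-numbered library and the next even-numbered one are a BS and an oxBS library of the same cell type and sex. Pairs read from the numbers would be an assumption and were not tested. The median depth of members was 132 calls per CpG over all 16 libraries, and a minimum of 300 calls changed no call.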
